A study of Rattus norvegicus and Mus musculus with 10 samples.

Results

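The genes described here encode the T cell antigen receptor and its coreceptors: Cd3e, Cd3d and Cd3g, the receptor chain constant genes Trac, Trbc2 and Trdc, and the coreceptor genes Cd4, Cd8a, Cd8b and Cd8b1. They are 10 symbols of the 43538 that the rat and mouse tables hold between them. They were chosen by name, and the list was drawn up with measured values in view, namely their summed levels and shares of cells by cluster, tissue and condition. By symbol, 7 were analysed in rat (all but Trac, Trdc and Cd8b1, the mouse symbol of Cd8b) and 9 in mouse (all but Cd8b). Every level below is therefore a description and carries no test.

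The study sequenced single leukocytes from the borders of the central nervous system with a 3' droplet assay that counts unique molecular identifiers (UMIs, one per captured RNA molecule). In naive Lewis rats the groups were parenchymal CNS, choroid plexus (CP), dura, pia, cerebrospinal fluid (CSF) and blood, 1 library each from 25 rats in all; in C57BL/6 mice they were skull dura of 3 pooled mice at the peak of active experimental autoimmune encephalomyelitis (EAE, a model of multiple sclerosis) and skull dura of 4 pooled unimmunized mice. CNS, CP, dural and pial cells had been sorted as CD45-positive cells outside the reach of an intravenous CD45 label, CSF cells had not been sorted, and blood mononuclear cells had been purified on a density gradient, so sort and tissue cannot be told apart. The labels' condition field names EAE for both mouse libraries; the groups used here follow the titles. Each group is 1 library, so nothing below is tested against replicates, and each interval is a 95% interval for counting error only.

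An alpha beta or gamma delta receptor chain pair binds antigen but cannot signal by itself. The CD3 gamma, delta and epsilon subunits (Cd3g, Cd3d, Cd3e), together with the zeta chain (Cd247), carry the signalling motifs and are needed for the receptor to reach the cell surface. Trac and Trbc2 encode constant regions of the alpha and beta chains, and Trdc that of the delta chain, whose genes lie inside the alpha chain locus. CD4 binds MHC class II and marks helper and regulatory T cells, and CD8, an alpha alpha or alpha beta dimer (Cd8a, Cd8b), binds MHC class I and marks cytotoxic T cells. In the rat, unlike the mouse, monocytes and macrophages also carry CD4, and natural killer (NK) cells carry CD8 alpha. NK cells and innate lymphoid cells (ILC) have no CD3 receptor on their surface.

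In mm10 (GENCODE vM21) the 3 CD3 genes are neighbours on chromosome 9: Cd3g at 44969572-44980431 on the minus strand, Cd3d at 44981786-44987339 on the plus strand and Cd3e at 44998740-45009627 on the minus strand. Cd8b1 (71322788-71337494) and Cd8a (71373427-71379173) are neighbours on the plus strand of chromosome 6, which also holds Trbc2 (41546730-41548352, plus strand) and Cd4 (124864692-124888221, minus strand). Trdc (54142851-54148868) and Trac (54220521-54224206) lie on the plus strand of chromosome 14. Mouse Trbc1 and Trbc2 are near-identical copies, so reads can be split between them or lost, and the level of Trbc2 is uncertain to that extent.

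The annotated cells numbered 2272 to 4953 per rat library, with a median of 981 (pia) to 2704 (CNS) UMIs per cell. The mouse libraries held 4579 EAE and 2776 naive cells, with medians of 11743 and 4163.5 UMIs. Because deeper cells show more genes, shares of cells are given as deposited and, where stated, after thinning every cell to 500 UMIs in rat or 1000 UMIs in mouse. Free RNA can also leave UMIs in cells that do not make a gene, and its amount was not estimated. In clusters that are not T, NK or ILC and hold 50 or more cells, a CD3 UMI was seen in 0 to 0.471% of cells in CNS, 0 to 1.47% in CP, 2.32 to 23.7% in dura, 1.61 to 3.86% in pia, 2.47 to 13.6% in CSF and 10.8 to 29.0% in blood. The same range was 12.6 to 28.7% in EAE and 3.26 to 23.8% in naive mouse dura, and 0.926 to 3.96% and 0.580 to 9.70% after thinning. Shares at or below these levels are read as background, which need not be free RNA alone. The dural upper end is cluster Bc2 (88 of 371 cells), where Cd3g made up 92.0% of CD3 UMIs, as described below.

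In rat, the cluster named CD4 Tc held CD3 transcripts in every tissue, but in a smaller share of its cells in the sorted tissues than in blood. A UMI of any CD3 gene was found in 66.0% of CD4 Tc cells in CNS (35 of 53), 82.8% in CP (96 of 116), 68.5% in dura (405 of 591), 70.9% in pia (351 of 495) and 95.6% in CSF (1464 of 1531), against 99.6% in blood (737 of 740). Thinned to 500 UMIs, the shares were 57.2% in CNS, 78.2% in CP, 60.9% in dura, 64.4% in pia and 70.4% in CSF, against 88.7% in blood. Blood was highest on both scales, and CSF, second as deposited, stood below CP after thinning.

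The levels of the subunits, summed over all cells of the cluster, are given as the number of its UMIs per 1e6 UMIs of the cluster (CPM). Cd3e, the epsilon subunit shared by both heterodimers of the complex, stood at 910.1 CPM in CNS, 897 in CP, 698 in dura, 729 in pia and 563 in CSF, against 1098 CPM in blood (interval 1053 to 1144). Cd3d, the delta subunit, stood at 887 CPM in CNS, 918 in CP, 777 in dura, 906 in pia and 903 in CSF, against 1272 CPM in blood. Cd3g, the gamma subunit, stood at 1394 CPM in CNS, 1507 in CP, 1539 in dura, 1292 in pia and 1081 in CSF, against 2081 CPM in blood. Blood was highest for each CD3 gene, and the intervals of CNS and CP overlapped for all 3 of them. Trbc2, the beta chain constant gene, stood at 2135 CPM in CNS, 1575 in CP, 1349 in dura, 1209.8 in pia and 696 in CSF, against 2253 CPM in blood. For Trbc2 the CNS and blood intervals overlapped, and CSF was lowest.

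**Figure D1:**
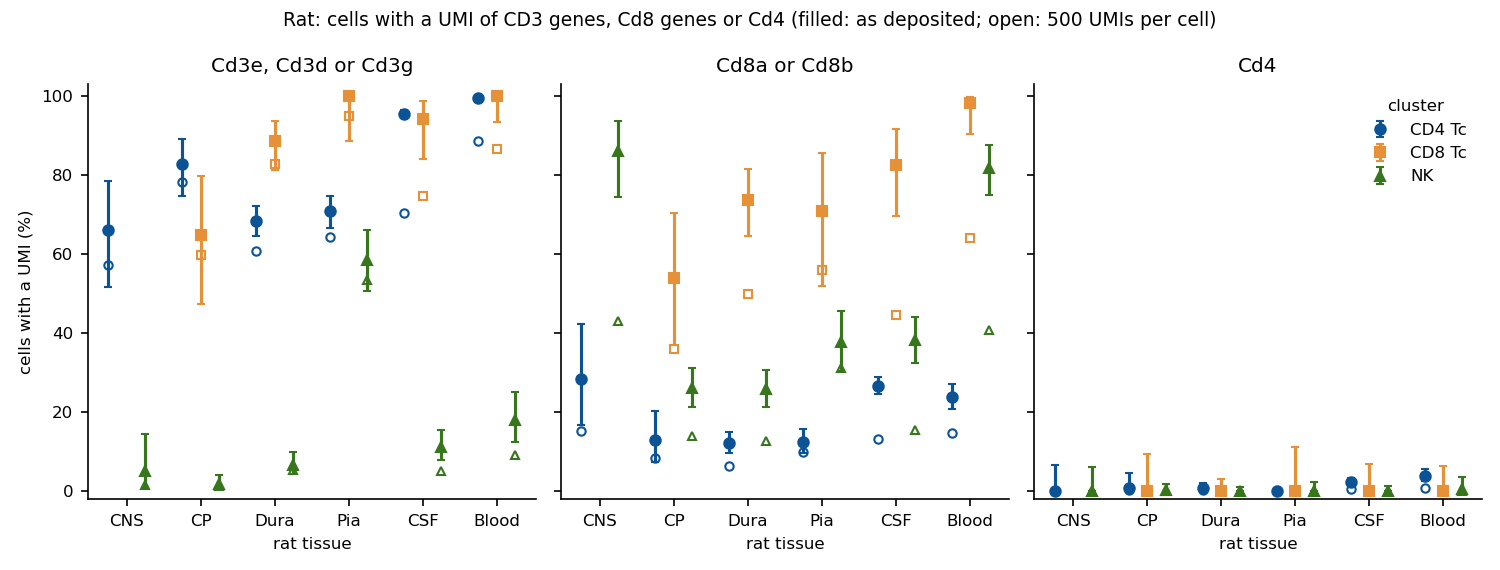
Share of cells with a UMI of a CD3 gene, a Cd8 gene or Cd4 in the authors' rat clusters CD4 Tc, CD8 Tc and NK by tissue; filled marks are the deposited values with 95% exact binomial intervals, open marks the shares expected at 500 UMIs per cell, and clusters under 20 cells are not drawn. CD3 marks most CD4 Tc and CD8 Tc cells and 58.5% of pial NK cells, Cd8 marks 12.2 to 28.3% of CD4 Tc cells, and Cd4 stays at or below 3.92% of cells everywhere.

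Cd4 itself was close to 0 in the rat cluster that carries its name. CD4 Tc cells with a Cd4 UMI numbered 0 of 53 in CNS, 1 of 116 in CP, 5 of 591 in dura, 0 of 495 in pia and 36 of 1531 in CSF, against 29 of 740 in blood. The shares with a Cd4 UMI were thus 0.862% in CP, 0.846% in dura and 2.35% in CSF, against 3.92% in blood, and the counts of 0 allow up to 5.66% in CNS and 0.606% in pia. No CD8 Tc cell of CP, dura, pia, CSF or blood had a Cd4 UMI, and 1 NK cell in CP and 1 in blood had one. Neither Cd4 nor Cd8 was seen in 72.4% of blood CD4 Tc cells (536 of 740). Counts of Cd4 this low do not test the cluster name. Cd40lg, the CD40 ligand gene, was chosen after values were seen. In CD4 Tc cells it stood at 264 CPM in blood, 187 in CSF and 109 in dura. In CD8 Tc cells the values were 0, 8.20 and 6.34 CPM in that order.

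Rat Cd4 was as high in several myeloid clusters as in the T cell cluster. In cluster myeloid 2 it stood at 19.0 CPM in CNS, 19.7 in CP, 20.6 in dura and 19.3 in pia, and in cluster myeloid3 of blood at 22.1 CPM, against 15.0 CPM (interval 10.2 to 21.3) in blood CD4 Tc cells. The genes whose log2(CPM + 1) was most like that of Cd4 over the 42 cluster-by-tissue groups with 50 or more cells included Clec4a1, Fam20c, Tnfsf13 and Arl11, with Pearson's r of 0.77, 0.77, 0.76 and 0.75. These r values are descriptions over groups that share libraries.

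Cd8 transcripts were more frequent than Cd4 in the rat CD4 Tc cluster of every tissue. A UMI of Cd8a or Cd8b was seen in 28.3% of CD4 Tc cells in CNS (15 of 53), 12.9% in CP (15 of 116), 12.2% in dura (72 of 591), 12.5% in pia (62 of 495) and 26.7% in CSF (409 of 1531), against 23.9% in blood (177 of 740). Thinned to 500 UMIs the shares were 15.1% in CNS, 8.45% in CP, 6.36% in dura, 9.86% in pia and 13.2% in CSF, against 14.8% in blood. In clusters of 50 or more cells that are not T, NK or ILC, a Cd8 UMI was seen in up to 0.602% of cells in CNS, 1.45% in CP, 12.6% in dura, 0.528% in pia, 9.37% in CSF and 19.7% in blood, the last in myeloid3. Thinned, those upper ends were 0.113%, 0.759%, 2.66%, 0.263%, 3.77% and 5.78% in the same order. The dural CD4 Tc share as deposited thus lies within that range, and every thinned CD4 Tc share lies above it. Cd8a stood at 391 CPM in CNS, 205 in CP, 126 in dura, 194 in pia and 304 in CSF, against 439.6 CPM in blood.

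The Cd8 UMIs of the CD4 Tc cluster were split between the alpha and beta genes much as in the CD8 Tc cluster. Cd8b made up 26.4% of Cd8 UMIs in CD4 Tc cells of CNS, 16.7% in CP, 20.9% in dura, 24.5% in pia and 26.6% in CSF, against 20.5% in blood. In CD8 Tc cells the share of Cd8b was 33.3% in CP, 26.2% in dura, 28.2% in pia and 22.2% in CSF, against 24.0% in blood. In NK cells it was 0% in CNS (0 of 232 UMIs), 0.855% in CP, 5.56% in dura and 4.29% in CSF, against 0.842% in blood, where 475 Cd8 UMIs were counted. NK cells thus held Cd8a with almost no Cd8b in those 5 tissues; pial NK cells, at 27.7% Cd8b, did not.

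The CD8 Tc cluster held more Cd8b than any other rat T or NK cluster, and more Cd8a than the CD4 Tc cluster of the same tissue. Cd8a stood at 789 CPM in CP, 1122 in dura, 1196 in pia and 976 in CSF, against 1663 CPM in blood, and Cd8b at 395 CPM in CP, 399 in dura, 469.9 in pia and 279 in CSF, against 525 CPM in blood. A Cd8 UMI was seen in 54.1% of CD8 Tc cells in CP (20 of 37), 73.7% in dura (84 of 114), 71.0% in pia (22 of 31) and 82.7% in CSF (43 of 52), against 98.2% in blood (55 of 56). Even in this cluster, thinning to 500 UMIs left only 36.0 to 64.1% of cells with a Cd8 UMI. By number, the CD4 Tc cluster held more cells with a Cd8 UMI than the CD8 Tc cluster in pia (62 against 22), CSF (409 against 43) and blood (177 against 55), and fewer in CP (15 against 20) and dura (72 against 84).

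CD4 Tc cells with a Cd8 UMI also differed from the other CD4 Tc cells in genes outside the receptor. In blood, where 177 cells with a Cd8 UMI were set against 563 without, 2-fold or more was reached by 7.13% of 6088 genes with 20 or more UMIs, and by Cd8a, Cd8b and Cd4 of the 7 receptor genes. Cd8 genes define the split, and Cd4 was lower at 4 against 27 UMIs (2.57-fold lower, interval 0.896 to 10.1). Gzmm, which encodes granzyme M of cytotoxic cells, had 141 UMIs in Cd8-positive and 13 in Cd8-negative cells, a log2 ratio of 4.83. Klra22, a lectin-like NK receptor gene, had 47 against 7 UMIs, and the chemokine gene Ccl3 had 62 against 16. Of 8 NK list genes tested in blood, 3 were 2-fold or more higher and 0 lower, beside 2.68% higher and 4.45% lower over all genes.

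The same split in CSF (409 against 1122 cells) was marked by Ccl3 at 84 against 7 UMIs, Ccl4 at 66 against 10 and G0s2 at 2 against 95, where 6.69% of 6901 genes were past 2-fold. Nkg7, a cytotoxic granule gene, was 9.52-fold higher in the Cd8-positive cells of CSF (241 against 55 UMIs, interval 7.08 to 13.0). The 4 regulatory T cell genes that reached 20 UMIs in the CSF comparison, out of 6 listed, were all 2-fold or more lower, beside 4.75% of all genes. Nkg7 was also 6.51-fold higher in dura (46 against 45 UMIs) and 6.12-fold higher in pia (43 against 47 UMIs). Among regulatory T cell genes, 4 of 4 tested were lower by 2-fold or more in dura and 4 of 4 in pia, where 10.7% and 12.4% of all genes were that much lower. Past 2-fold in either direction were 15% of 4262 genes in dura and 18.1% of 2271 genes in pia, and 5.68% were higher in pia, 1.94% in CSF and 4.29% in dura. Nkg7 was chosen after values were seen, as were the other genes named below from the lists. The CD3 genes of Cd8-positive cells were 1.60- to 1.61-fold higher in dura, where the Cd8-positive cells were also somewhat deeper (median 1559 against 1351 UMIs).

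CD4 Tc cells without any CD3 UMI made up 31.5% of the cluster in dura (186 of 591) and 29.1% in pia (144 of 495), and they were not shallower than those with one. The median was 1351 UMIs in CD3-positive and 1445 in CD3-negative dural cells, and 730 and 834 in pial cells. Trbc2, which did not enter the split, was 6.33-fold higher in the CD3-positive dural cells (1162 against 89 UMIs, interval 5.10 to 7.94) and 3.78-fold higher in pial ones (449 against 49 UMIs). Cd247, the zeta chain, was 9.97-fold higher in dura at 144 against 7 UMIs.

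The genes that differed most in dura, where 16.5% of 4262 genes were past 2-fold, were Il17a at 160 UMIs in CD3-positive and 2 in CD3-negative cells, Cysltr1 at 3 against 49 and Ms4a4c at 69 against 1. Il17a encodes the signature cytokine of type 17 lymphocytes, and Cysltr1 a cysteinyl leukotriene receptor. Of the ILC list, 4 of 5 genes tested were 2-fold or more lower in CD3-positive dural cells (6.64% of all genes were) and 0 higher. Those ILC genes were Il7r (25 against 36 UMIs), Rora (57 against 81), Il1rl1 (2 against 25) and Il17rb (1 against 22). Gata3, the transcription factor of type 2 lymphocytes, was 3.58-fold lower in CD3-positive cells at 114 against 198 UMIs. The proximal receptor signalling list went the other way, with 8 of 16 genes tested higher and 0 lower beside 9.85% higher over all genes, and a median log2 ratio of 0.98 against 0.01 for all genes. Il1rl1, the IL-33 receptor, and Il17rb, the IL-25 receptor, mark type 2 ILC in mouse.

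In pia, 16.2% of 2271 genes were past 2-fold between CD3-positive and CD3-negative CD4 Tc cells. G0s2 had 10 UMIs in the CD3-positive and 127 in the CD3-negative cells, Gzmm 71 against 1 and Cd27, a costimulatory receptor gene of lymphocytes, 63 against 1. In CNS, all 9 of the 11 myeloid list genes that were tested were 2-fold or more lower in the 35 CD4 Tc cells with CD3 than in the 18 without, beside 8.2% of 1219 genes lower and 19.3% past 2-fold in either direction. Tyrobp, an adaptor gene of NK and myeloid cells, had 11 UMIs in CD3-positive and 58 in CD3-negative cells, and 51 of the 53 CNS cells had 10 or more UMIs over the myeloid list. The summed level of that 11-gene myeloid list in CD4 Tc cells was 17746 CPM in CNS, 6035 in CP, 4092 in dura, 4409 in pia and 2647 in CSF, against 954 CPM in blood, where 3 of its genes were at 0. Its part in the CNS and CP values was not tested.

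The rat NK cluster held few CD3 transcripts except in pia. A CD3 UMI was seen in 5.17% of NK cells in CNS (3 of 58), 1.93% in CP (6 of 311), 6.72% in dura (24 of 357), 58.5% in pia (96 of 164, interval 50.6 to 66.2) and 11.3% in CSF (31 of 275), against 18.1% in blood (28 of 155). As deposited, the blood and CSF shares lie within the range of clusters of those tissues that should lack CD3. In blood only cluster myeloid1 (29.0%) lay above NK cells, and Bc1 (13.9%) and myeloid3 (10.8%) lay below. The CNS and CP shares lie above their ranges, which end at 0.471% and 1.47%. The pial share is far above its range of 1.61 to 3.86%. Thinned to 500 UMIs the share was 53.5% in pia and 9.22% in blood (range 2.78 to 19.2%). The thinned CSF share was 5.17%, above its range of 1.02 to 3.26%.

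Of the NK list, 2 of 6 genes tested were 2-fold or more lower and 0 higher in pial NK cells with CD3 than in those without, beside 7.53% of all genes lower. Tyrobp had 16 UMIs in the 96 CD3-positive and 251 in the 68 CD3-negative cells, a log2 ratio of -4.24. Ccl4 had 582 against 74 UMIs and the gene listed as AABR07017902.1 121 against 14, and 13.8% of 863 genes were past 2-fold. Klre1, an NK lectin-like receptor gene, was 4.13-fold lower in the CD3-positive cells (19 against 65 UMIs), and Cd8b had 28 against 0 UMIs, a ratio whose interval begins at 5.88. Of the proximal receptor signalling genes, 4 of 6 tested were 2-fold or more higher and 0 lower, beside 6.26% higher over all genes. The Cd8b share of pial NK cells noted above thus came from CD3-positive cells alone.

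Set against the 31 pial CD8 Tc cells, the 96 CD3-positive pial NK cells had Cd3e at 878 against 1324 CPM, Cd3d at 951 against 1196, Cd3g at 2092 against 3033, Trbc2 at 1214 against 1452, Cd8a at 805 against 1196 and Cd8b at 409.7 against 469.9. None of the 6 receptor genes tested was past 2-fold, beside 13.5% of 629 genes, and only for Cd3g did the interval of the ratio (0.515 to 0.930) leave out 1. A CD3 UMI chose these NK cells, so their CD3 levels are a description. The CD8 Tc cells were not chosen that way, though all 31 held one. Nkg7 was 2.17-fold higher in the CD3-positive NK cells (146 against 23 UMIs, interval 1.40 to 3.54). The myeloid list had 4 of 7 genes 2-fold or more higher, beside 8.9% of all genes.

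Trbc2 was not a T cell marker in the rat NK cluster. It stood at 714 CPM in CNS, 673 in CP, 583 in dura, 904 in pia and 288 in CSF, against 762 CPM in blood. NK cells with Trbc2 and no CD3 UMI made up 89.7% in CNS (52 of 58), 52.7% in CP, 42.9% in dura, 14.6% in pia and 41.1% in CSF, against 62.6% in blood. Cd8a in NK cells stood at 1236 CPM in CNS, 311 in CP, 274 in dura, 584 in pia and 318 in CSF, against 1068 CPM in blood. CNS and blood NK cells were the Cd8a-high groups, and the other 4 tissues did not reach 600 CPM.

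Outside the T cell clusters, Cd3g made up most CD3 UMIs of dural B cells and all of those of dural plasmacytoid dendritic cells (pDC). In the 48 dural pDC, Cd3g had 69 UMIs (616 CPM, interval 479.6 to 780.2) in 29 cells, while Cd3e and Cd3d had 0, which allows up to 26.8 CPM each. In dural Bc1 cells, Cd3g stood at 127 CPM, Cd3d at 14.3 and Cd3e at 9.52; in dural Bc2 cells, Cd3g stood at 141 CPM, Cd3d at 6.66 and Cd3e at 5.55. Cd3g thus made up 100% of CD3 UMIs in dural pDC (interval 94.8 to 100), 84.3% in dural Bc1 (76.7 to 90.1) and 92.0% in dural Bc2 (86.2 to 96.0). In the cluster named micro it was 92.9% in dura (13 of 14 UMIs, 66.1 to 99.8) and 72.2% in pia (13 of 18, 46.5 to 90.3). In T cell clusters of the 6 tissues the share was 41.0 to 54.6%, and in blood Bc1 cells it was 54.6% (48.8 to 60.3). In mouse pDC, Cd3g stood at 36.0 CPM in EAE and 0 in naive dura, with Cd3d at 28.9 and 2.79 CPM, and Cd3g was not alone there.

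The Cd3g-positive dural B cells were deeper than the rest, with a median of 1736.5 against 977 UMIs (176 against 1031 cells). Among the 6316 genes tested 8.63% were past 2-fold between them, and Mcpt1l4 (1 against 79 UMIs), Mcpt8 (1 against 67) and Arl5b (2 against 55) were lowest in the Cd3g-positive cells. The B cell receptor component Cd79a had 1034 UMIs in Cd3g-positive and 4380 in Cd3g-negative cells, 1.21-fold lower. Other receptor genes were also higher in the Cd3g-positive cells, at few UMIs: Trbc2 was 4.67-fold higher (16 against 12 UMIs, interval 2.07 to 10.8) and Cd3e 7.89-fold higher (9 against 4, interval 2.20 to 35.1).

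The sequences upstream of the rat genes are shown because Cd3g was seen without its neighbours Cd3d and Cd3e in dural pDC. They are the 250 bases before the annotated start of each gene in RefSeq's annotation of GRCr8, on chromosome 8, and capitals mark matches to CANNTG, the E-box, which is its own reverse complement; E-box factors act in both B and T cells and in pDC. RefSeq coordinates are chr8:54183919-54184168 (minus strand) for Cd3g, chr8:54185269-54185518 (plus strand) for Cd3d and chr8:54211771-54212020 (minus strand) for Cd3e, a build other than the one the counts were made with.
Cd3g: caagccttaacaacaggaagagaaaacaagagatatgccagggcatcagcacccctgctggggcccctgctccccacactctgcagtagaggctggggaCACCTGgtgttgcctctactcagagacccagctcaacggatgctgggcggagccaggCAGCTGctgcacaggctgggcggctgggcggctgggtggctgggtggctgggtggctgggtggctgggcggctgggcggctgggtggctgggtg
Cd3d: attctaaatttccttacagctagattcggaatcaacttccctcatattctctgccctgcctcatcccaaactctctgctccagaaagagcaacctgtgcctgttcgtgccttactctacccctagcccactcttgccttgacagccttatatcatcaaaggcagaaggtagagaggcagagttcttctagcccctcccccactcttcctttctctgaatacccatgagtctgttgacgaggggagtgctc
Cd3e: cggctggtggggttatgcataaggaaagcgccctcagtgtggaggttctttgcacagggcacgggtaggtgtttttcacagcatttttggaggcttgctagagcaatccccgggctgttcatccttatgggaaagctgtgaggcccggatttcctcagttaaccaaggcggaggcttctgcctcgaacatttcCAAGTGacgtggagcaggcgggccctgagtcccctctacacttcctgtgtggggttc
The E-box letters occur at 2 places before Cd3g, 0 before Cd3d and 1 before Cd3e, and 65.5% of all 33465 promoters of this length hold at least 1. GGAA, the core of ETS factor sites, searched on both strands, occurs 1 time before Cd3g, 4 times before Cd3d and 5 times before Cd3e, with 93.2% of promoters holding it. TGTGGT, the core of RUNX sites, searched on both strands, occurs in none of the 3 windows and in 14.5% of all. These matches describe letters in a window and say nothing of binding; 4 of the 7 rat genes had a promoter in the RefSeq table.

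**Figure D2:**
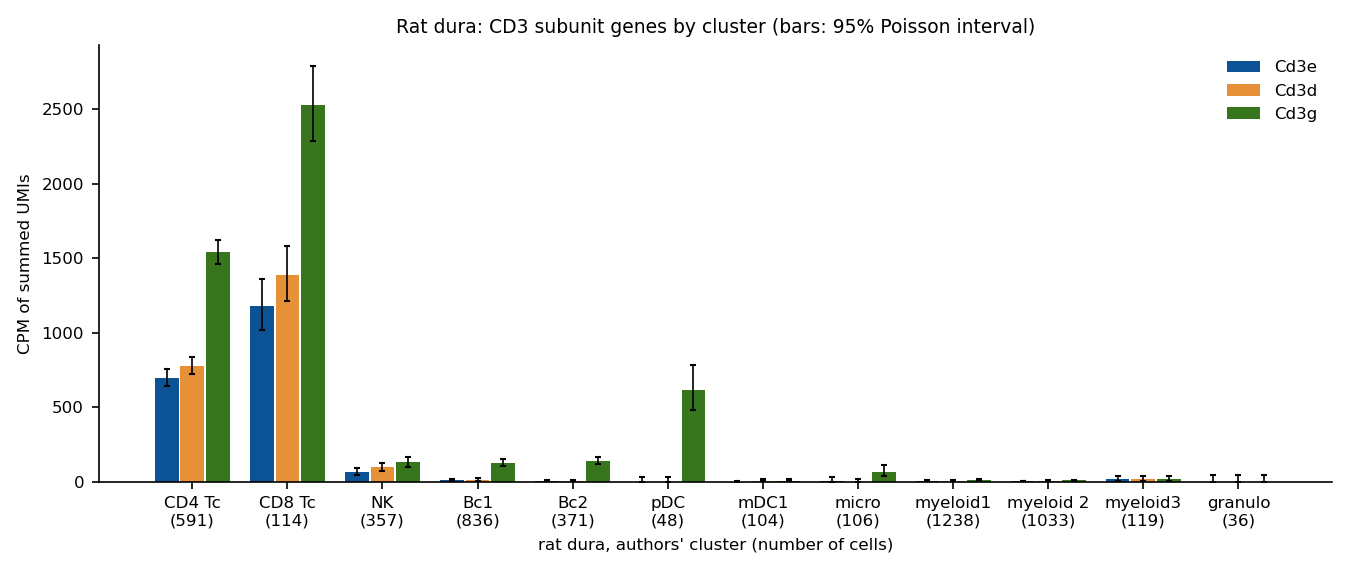
CPM of Cd3e, Cd3d and Cd3g summed over the cells of each of the authors' clusters in rat dura, with 95% Poisson intervals and the number of cells in parentheses. All 3 genes are seen in CD4 Tc and CD8 Tc cells, and in pDC Cd3g alone, at 616 CPM.

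Within rat clusters of 50 or more cells, each tissue was also set against blood. In CD4 Tc cells, 0 of the 7 receptor genes were past 2-fold in CNS (24.9% of all genes tested were), 3 in CP (29.4%, of which 9.31% higher and 20.1% lower), 3 in dura (28.3%), 2 in pia (32.8%) and 1 in CSF (24.8%), all lower than in blood. In dura they were Cd8a (3.48-fold lower, interval 2.87 to 4.26), Cd8b (3.38-fold lower) and Cd4 (2.78-fold lower, 5 against 31 UMIs). Cd8a was also 2.14-fold lower in CP and 2.26-fold lower in pia, both within 2-fold after TMM scaling (log2 -0.87 and -0.95). Cd4 was also within 2-fold in CP after TMM scaling (log2 -0.90). In pia Cd4 had 0 against 31 UMIs, and its log2 ratio of -1.04 rests on 0 set to 3 counts, so that the TMM shift of -0.23 leaves no receptor gene past 2-fold there. The median log2 ratio of all genes was -0.20 in CP, -0.29 in pia and -0.32 in CSF, so ratios there are best read against those shifts. In CSF it was Trbc2, 3.24-fold lower (interval 3.08 to 3.40), with Cd3e 1.95-fold and Cd3g 1.92-fold lower. The CSF library stood apart: Ttr, the transthyretin gene of the choroid plexus epithelium, had 69325 UMIs in CSF CD4 Tc cells and 0 in blood, and Rpl35a had 12840 against 10. The part of these differences in the CSF ratios was not tested.

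In CD8 Tc cells, 0 of 6 receptor genes tested were past 2-fold between dura and blood (19.8% of all genes) and 1 of 6 between CSF and blood (27.5%), again Trbc2, 2.91-fold lower. The Cd8a difference between dura and blood seen in CD4 Tc cells was 1.48-fold in CD8 Tc cells (interval 1.23 to 1.79). In NK cells the number past 2-fold was 3 of 5 genes in CNS (14.5% of all genes), 4 of 5 in CP (25.4%), 1 of 5 in dura (21.3%), 4 of 6 in pia (31.5%) and 5 of 5 in CSF (23.3%). Pia was the tissue where they were higher than in blood: Cd3e 4.24-fold, Cd3d 4.99-fold, Cd3g 7.32-fold and Cd8b 24.7-fold (28 against 4 UMIs, interval 8.65 to 97.0). Elsewhere they were lower, as for Cd8a, 3.89-fold lower in dural, 3.43-fold lower in CP and 3.35-fold lower in CSF NK cells. The CD3 genes rest on few UMIs there. Cd3e, Cd3d and Cd3g had 0, 2 and 4 UMIs in CNS and 4, 5 and 6 in CP, against 50, 46 and 69 in blood. The CD3 share of blood NK cells lay within the background of blood, whose upper end is cluster myeloid1 alone. The lower CD3 ratios of CNS, CP and CSF are therefore not read as differences between NK cells. Over all genes, the share 2-fold or more higher was 10.4% in CSF CD4 Tc cells, 9.57% in dural (with 10.3% lower) and 6.07% in CSF CD8 Tc cells, and in NK cells 6.32% in CNS, 8.42% in CP, 10.4% in dura, 7.6% in pia and 8.74% in CSF. Cd3d in CSF NK cells was within 2-fold after TMM scaling (log2 -0.77). All tissue ratios share the blood library.

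In mouse dura, CD3 transcripts marked nearly all cells of the CD8Tc, Treg and gdTc clusters in both conditions but only part of the naive CD4Tc cluster. A CD3 UMI was seen in 226 of 226 EAE and 238 of 240 naive CD8Tc cells, in 115 of 116 EAE and 29 of 30 naive Treg cells and in 79 of 79 EAE and 373 of 379 naive gdTc cells. In CD4Tc cells it was seen in 96.7% of EAE cells (147 of 152) and 39.9% of naive cells (141 of 353, interval 34.8 to 45.3), and in 91.9% and 31.1% after thinning to 1000 UMIs. The naive share is above the thinned background of 0.580 to 9.70% and far below the other naive T cell clusters.

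The ILC cluster showed the opposite exception. A CD3 UMI was seen in 71.7% of EAE ILC (38 of 53) and 10.7% of naive ILC (54 of 507), or 61.5% and 3.98% after thinning. Of the EAE ILC, 32 held 10 or more CD3 UMIs, 6 held 4 to 9, none held 1 to 3 and 15 held 0. Of the naive ILC, 1 held 10 or more, 7 held 4 to 9, 46 held 1 to 3 and 453 held 0. NK cells had a CD3 UMI in 29.2% of EAE and 24.5% of naive cells, or 10.6% and 11.3% after thinning. The background ended at 28.7% in EAE and 23.8% in naive dura, or 3.96% and 9.70% after thinning.

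**Figure D3:**
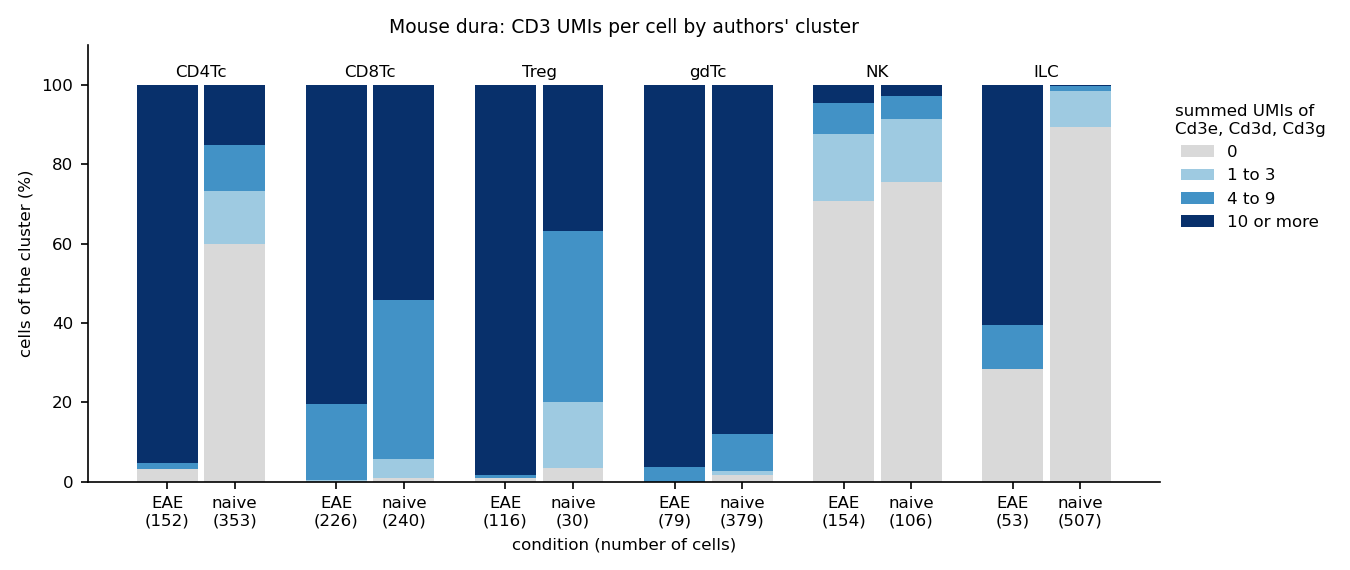
Share of cells of each mouse dural cluster with 0, 1 to 3, 4 to 9 or 10 or more summed UMIs of Cd3e, Cd3d and Cd3g, EAE beside naive, with the number of cells in parentheses. Of CD4Tc cells 145 of 152 held 10 or more in EAE and 53 of 353 in naive dura, while 212 naive CD4Tc cells held 0; most EAE ILC held 10 or more.

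The 212 naive CD4Tc cells without a CD3 UMI were as deep as the 141 with one (median 3475 and 3349 UMIs). Trac, which was not used to split them, had 340 UMIs in the CD3-positive and 5 in the CD3-negative cells, a 100-fold difference (interval 42.5 to 310). Cd4 had 30 against 6 UMIs, 7.36-fold higher. Trbc2 differed least, at 1639 CPM in CD3-positive and 892 CPM in CD3-negative cells, 1.84-fold. Cd3e, Cd3d and Cd3g define the split; with them, 5 of 6 receptor genes tested were past 2-fold, beside 15.7% of 5101 genes. Unlike Trac, Trbc2 was thus present in naive CD4Tc cells with no CD3 UMI.

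The CD3-positive and CD3-negative naive CD4Tc cells also differed in genes outside the receptor. Cd2, an adhesion receptor of T cells, had 131 UMIs in CD3-positive and 1 in CD3-negative cells, Tnfrsf4 (OX40) had 101 against 1 and Ctla4, an inhibitory receptor, 78 against 1. Of the proximal receptor signalling genes 13 of 20 tested were 2-fold or more higher and 0 lower, with a median log2 ratio of 1.55 against 0.00 for all genes, beside 9.25% of all genes higher. Of the ILC list, 6 of 12 were 2-fold or more lower and 0 higher (6.49% of all genes were lower). Those with the most UMIs were Csf2 at 200 against 685, Areg at 198 against 634 and Il1rl1 at 36 against 220. The CD3-positive cells held them too, with Csf2 at 388 against 904 CPM and Areg at 385 against 837 CPM. Gata3 was 2.27-fold lower at 141 against 470 UMIs.

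The CD3-negative naive CD4Tc cells were not the same as naive ILC without CD3. Il5, the cytokine gene typical of type 2 ILC, had 25 UMIs in the CD3-negative CD4Tc cells and 3481 in the 453 CD3-negative ILC, a log2 ratio of -5.81. Trf, the transferrin gene, had 2 against 212 and Il13 31 against 2690, and 32.8% of 6308 genes were past 2-fold. Trac had 5 against 30 UMIs in this comparison, and Trbc2 was 1.99-fold higher in the CD4Tc cells (interval 1.79 to 2.20). The median log2 ratio of all genes was 0.46 there, with 24.2% of genes 2-fold or more higher and 8.61% lower. Gamma chain genes were also present: Tcrg-C4 had 34 UMIs in CD3-positive and 164 in CD3-negative naive CD4Tc cells.

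Both EAE ILC and EAE CD4Tc cells with a CD3 UMI were then set side by side; the CD3 UMI chose both groups, so their CD3 levels are a description. Set against the 147 CD3-positive EAE CD4Tc cells, the 38 CD3-positive EAE ILC had Cd3e at 292 against 423 CPM, Trac at 449 against 707 CPM, Trbc2 at 1411 against 1527 CPM and Cd4 at 146 against 171 CPM. Of 7 receptor genes tested 1 was past 2-fold, Cd8b1 at 1 against 19 UMIs, a share near the 15.6% of all 5768 genes. Ccl4 had 436 against 14 UMIs, Ccl3 124 against 9 and Gzma, granzyme A, 1 against 330. Against the 15 EAE ILC without CD3, the CD3-positive ones had Ccl4 at 436 against 2 UMIs, Ccl3 at 124 against 1 and Il5 at 0 against 78, where 19.4% of 2324 genes were past 2-fold. Il5 was thus seen in EAE ILC only in cells with no CD3.

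Among the receptor chains, Trdc and Trac separated the gdTc cluster from the alpha beta clusters. Trdc stood at 2594 CPM in EAE and 3450.3 CPM in naive gdTc cells, and a Trdc UMI was seen in 81.0% of EAE (64 of 79) and 93.4% of naive gdTc cells (354 of 379). In the other 5 clusters Trdc lay between 0.590 CPM in EAE Treg cells and 122 CPM in EAE CD8Tc cells. Trac stood at 111 CPM in EAE and 94.3 CPM in naive gdTc cells, against 271 to 942 CPM in the CD4Tc, CD8Tc and Treg clusters of both conditions. The gamma chain gene Tcrg-C1 stood at 573 CPM in EAE and 1039 CPM in naive gdTc cells, and over 29 cluster-by-condition groups it was the gene most like Trdc (r = 0.82), followed by Tcrg-C2 (0.81), Clcn3 (0.79), Cd163l1 (0.79) and Trdv4 (0.79). Trbc2 was present in all 6 clusters but highest in the alpha beta ones. It stood at 1474 CPM in EAE and 1194 CPM in naive CD4Tc cells, at 1593 CPM in EAE and 1949 CPM in naive CD8Tc cells and at 1329 CPM in EAE and 2234 CPM in naive Treg cells. The other clusters lay below these values, with 889 CPM in EAE and 904 CPM in naive gdTc cells, 268 CPM in EAE and 472 CPM in naive NK cells, and 1091 CPM in EAE and 458 CPM in naive ILC. Its copy Trbc1, chosen after values were seen, did not follow this order in EAE. It stood at 573 CPM in NK cells and 724 in ILC, against 1075 in CD4Tc, 562 in CD8Tc and 603 in Treg cells. A Trbc1 UMI was seen in 94.2% of EAE and 81.1% of naive NK cells.

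The cluster named CD8Tc held a group of Trdc-positive cells. Trdc was seen in 14.2% of EAE (32 of 226) and 10.0% of naive CD8Tc cells (24 of 240), and 2 cells of each condition had both Trdc and a Cd8 UMI. Of EAE CD8Tc cells, those with a Cd8 UMI had 2 Trdc UMIs in 88 cells and those without had 205 in 138 cells. The corresponding naive counts were 2 Trdc UMIs in 82 cells and 98 in 158 cells. Per UMI, Trdc was 71.8-fold lower in the Cd8-positive cells in EAE (interval 19.6 to 597) and 31.6-fold lower in naive dura (8.51 to 265).

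A Cd8 UMI itself was seen in 38.9% of EAE (88 of 226) and 34.2% of naive CD8Tc cells (82 of 240), or 17.4% and 20.4% after thinning to 1000 UMIs. Cd8a stood at 122 CPM in EAE and 153 CPM in naive CD8Tc cells, and Cd8b1 at 195 CPM in EAE and 238 CPM in naive cells. Cells with Trac but none of Cd4, Cd8 or Trdc made up 38.1% of EAE (86 of 226) and 42.1% of naive CD8Tc cells (101 of 240). Since thinning lowers the Cd8 share this much, how many of those cells make Cd8 was not detectable at this depth.

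In EAE, CD8Tc cells with a Cd8 UMI had Gzma at 331 against 25 UMIs in those without, Dapl1 at 78 against 27 and Itgav at 8 against 42, where 5.39% of 5841 genes were past 2-fold. In naive dura the genes that differed most were Cd40lg at 0 against 82 UMIs, Fgl2 at 5 against 63 and Tcrg-C4 at 4 against 50, where 8.91% of 4671 genes were past 2-fold. Cd40lg encodes the CD40 ligand of activated helper T cells. Cd4 was lower in the Cd8-positive cells of both conditions, at 2 against 28 UMIs in EAE and 1 against 20 in naive dura. Trac and the CD3 genes differed by less than 1.2-fold in EAE between the Cd8-positive and Cd8-negative cells.

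**Figure D4:**
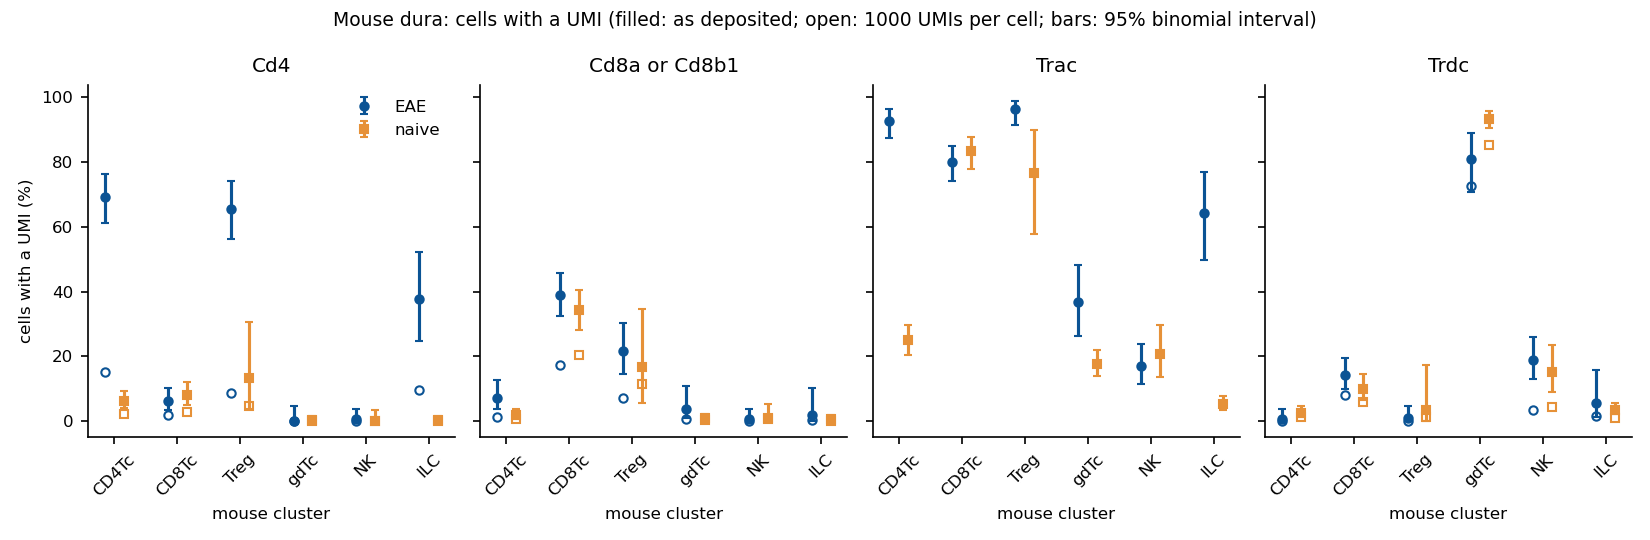
Share of cells with a UMI of Cd4, of Cd8a or Cd8b1, of Trac and of Trdc in each mouse dural cluster, EAE (circles) and naive (squares), with 95% exact binomial intervals; open marks are shares expected at 1000 UMIs per cell, not computed for Trac. Cd4 marks 69.1% of EAE and 6.23% of naive CD4Tc cells, Cd8 marks fewer than 40% of CD8Tc cells, and Trdc is highest in gdTc cells.

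Cd4 was found in the mouse clusters named for helper and regulatory T cells, mostly in EAE. In CD4Tc cells it stood at 164 CPM in EAE (interval 143 to 188) and 28.3 CPM in naive dura (19.8 to 39.2), in 69.1% of EAE (105 of 152) and 6.23% of naive cells (22 of 353). Thinned to 1000 UMIs these shares were 15.2% and 2.14%. Over cells as deep as the lowest EAE cell the share was 69.1% in EAE (interval 61.1 to 76.3) and 35.7% in naive CD4Tc cells (5 of 14, interval 12.8 to 64.9), and the intervals overlap. In Treg cells Cd4 stood at 77.3 CPM in EAE and 28.6 CPM in naive dura, and in ILC at 102 CPM in EAE and 0.945 CPM in naive dura. In CD8Tc cells it stood at 17.6 CPM in EAE and 19.9 CPM in naive dura. No gdTc cell in EAE and 1 in naive dura had a Cd4 UMI. Outside lymphocytes, pDC held 52.4 CPM in EAE and 13.9 CPM in naive dura.

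The Treg cluster also held Cd8 transcripts. Cd8a stood at 47.2 CPM in EAE and 164 CPM in naive Treg cells, and Cd8b1 at 109 CPM in EAE and 335 CPM in naive cells, the naive values resting on 30 cells. In EAE 25 of 116 Treg cells had a Cd8 UMI, or 7.12% after thinning, and 12 had both Cd4 and Cd8. In EAE clusters of 50 or more cells that are not T, NK, ILC or pDC, the highest Cd8 share was 10.6% in mDC1, or 1.20% after thinning. The 25 were deeper than the other 91 (median 15099 against 11644 UMIs). Among the 6297 genes tested 8.16% were past 2-fold, and Ccl8 (1 against 61 UMIs), Il17a (0 against 172) and Ier3 (1 against 57) were lowest in the Cd8-positive cells. Chosen after values were seen, Ccl5 was 6.49-fold higher in the Cd8-positive cells (1095 against 532 UMIs), Gzmk had 41 against 4 UMIs and Foxp3, the regulatory T cell transcription factor, had 35 against 151 (1.37-fold lower, interval 0.942 to 2.04). Of the NK list 5 of 7 genes were higher by 2-fold or more, beside 2.56% of all genes. In pDC, Cd8a stood at 168 CPM in EAE and 64.1 CPM in naive dura, and Cd8b1 at 269 CPM in EAE and 167 CPM in naive dura; the alpha gene is known in mouse pDC.

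Within each mouse cluster the receptor genes were compared between EAE and naive dura. In the CD4Tc cluster, 5 of 7 genes tested were 2-fold or more higher in EAE and 0 lower, beside 26.5% of 7192 genes in either direction and 17.1% higher. Cd3d was 4.52-fold higher (interval 3.97 to 5.15), Cd3g 3.76-fold, Trac 2.50-fold and Cd4 5.81-fold (4.07 to 8.52), and Cd8b1 had 19 against 3 UMIs. The Cd8b1 UMIs lay in 11 of 152 EAE CD4Tc cells, or 7.24%. A Cd8 UMI was seen in 10.6% of EAE mDC1 and 7.12% of EAE myeloid3 cells. It was seen in 2.31% of mDC2, 1.8% of myeloid1 and 0.902% of granulo1 cells of EAE dura. Cd3e was 1.71-fold and Trbc2 1.23-fold higher. Among cells with a CD3 UMI alone, an alternative chosen after seeing the data, 2 of 7 genes were past 2-fold (25.3% of 6159 genes were). These were Cd4, 2.94-fold higher in EAE (2.00 to 4.46), and Cd8b1, at 19 against 3 UMIs. Trac was then 1.07-fold and Cd3d 1.90-fold higher, and Cd3e was 1.39-fold lower in EAE. In that subset 47 naive and 0 EAE cells held only 1 to 3 CD3 UMIs, and the median depth was 3349 against 7305 UMIs. The naive side may thus still hold cells with background CD3, and its part in these ratios was not tested. Over cells as deep as the lowest EAE cell, which leaves 14 naive CD4Tc cells, the log2 ratio of Cd3e was -0.04 and that of Trac 0.70, within 2-fold. The median log2 ratio of all genes was 0.22 in CD4Tc and 0.52 in ILC.

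In the CD8Tc cluster none of the 9 receptor genes was past 2-fold, beside 14.3% of 7069 genes. Cd3e was 1.91-fold lower (328 CPM in EAE and 627 CPM in naive cells) and Trac 1.89-fold lower (366 and 692 CPM), while Cd3d was 1.13-fold higher (969 and 859 CPM). In the gdTc cluster 1 of 6 was past 2-fold, beside 16.8% of 6620 genes: Cd3e, 2.10-fold lower at 543 CPM in EAE and 1139 CPM in naive cells, but within 2-fold over cells as deep as the lowest EAE cell (log2 -0.85). Trdc was 1.33-fold lower in EAE (log2 -0.07 over cells as deep as the lowest EAE cell), whereas Cd3d (964 and 1000.2 CPM) and Cd3g (2052 and 2175 CPM) stayed within 1.1-fold. In Treg cells Cd3e was 1.88-fold lower in EAE, at 349.7 CPM against 657 CPM in naive cells. Cd3e was thus lower in EAE in each of these 3 clusters while Cd3d differed by less than 1.2-fold.

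In Treg cells 3 of 8 receptor genes were past 2-fold, beside 24.7% of 6495 genes: Cd4 was 2.71-fold higher in EAE (131 against 4 UMIs, interval 1.03 to 10.1), Cd8a 3.48-fold lower and Cd8b1 3.09-fold lower. With each cell weighted equally the Cd8a and Cd8b1 differences were within 2-fold (log2 -0.66 and -0.56). In NK cells 3 of 6 were past 2-fold, beside 15.1% of 6204 genes: Cd3e was 5.84-fold lower (8 against 20 UMIs), Cd3g 2.22-fold lower and Trac 2.54-fold lower in EAE. Cd3d, the CD3 gene with the most UMIs in EAE NK cells, went the other way. It had 126 of 1243173 UMIs in EAE against 41 of 531774 in naive NK cells, within 2-fold. A CD3 UMI was seen in 29.2% of EAE and 24.5% of naive NK cells, little above background as deposited. These ratios are therefore not read as differences between NK cells. In ILC all 7 genes tested were 2-fold or more higher in EAE, beside 35.5% of 6055 genes in either direction and 27.9% higher. Cd3e was 39.1-fold higher (interval 20.7 to 81.5), Cd3d 64.8-fold, Cd3g 19.8-fold, Trac 19.5-fold and Cd4 at 39 against 2 UMIs. Trbc2 was 2.38-fold higher and Trdc had 7 against 18 UMIs, 2.14-fold higher with an interval of 0.757 to 5.38; after TMM scaling both were within 2-fold (log2 0.73 and 0.57). In ILC with a CD3 UMI, 38 in EAE and 54 in naive dura, all 6 genes tested were past 2-fold, beside 37.3% of 2616 genes. That subset sets EAE cells of which most held 10 or more CD3 UMIs against naive cells of which 46 held 1 to 3, a naive share within background, so nothing is read from it.

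**Figure D5:**
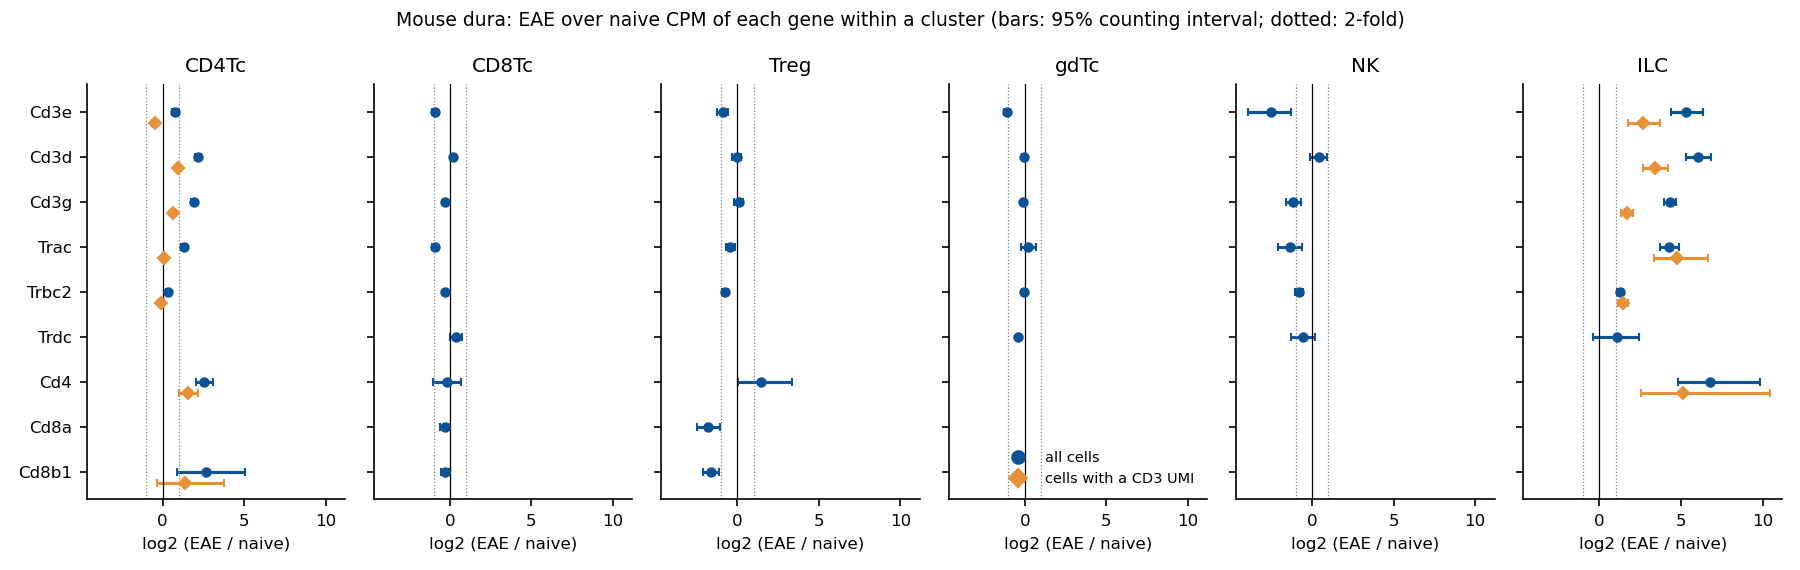
Log2 ratio of EAE over naive CPM of each receptor gene with 20 or more UMIs within a mouse dural cluster, with 95% counting intervals; diamonds repeat the ratio in cells with a CD3 UMI for CD4Tc and ILC, and dotted lines mark 2-fold. In CD4Tc cells with a CD3 UMI the CD3 and Trac ratios lie nearer 0 and Cd4 is 2.94-fold higher, and Cd3e lies left of 0 in CD8Tc, Treg, gdTc and NK cells.

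Several features of the libraries moved with condition and touch each of these EAE ratios. The 8 neutrophil genes summed to 3699 to 8278 CPM over the 6 lymphocyte clusters in EAE and to 157 to 224 CPM in naive dura, and the 12 myeloid genes to 2179 to 4202 CPM in EAE and 314 to 3327 CPM in naive dura. All 8 neutrophil genes were above 0 in every EAE cluster and 7 or 8 in naive ones. Xist, the X-inactivation RNA of female cells, had 0 UMIs in the whole EAE library and 3675 in the naive library; the labels give no sex, so sex and condition cannot be told apart. Every EAE cell had 5722 or more UMIs, and of the naive cells that reach this depth 10 of 14 CD4Tc cells and 8 of 40 ILC had a CD3 UMI. The part of these features in the ratios was not tested.

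The genes most like Cd3e included T cell genes in both species. Over 42 rat groups they were Bcl11b (r = 0.94), Trat1 (0.93), Ms4a4c (0.90), Camk4 (0.89) and AABR07017902.1 (0.88), and over 29 mouse groups Cd247 (0.92), Bcl11b (0.89), Sit1 (0.88), Camk4 (0.88) and Zap70 (0.87). Bcl11b encodes a T lineage transcription factor and Zap70 the kinase that binds phosphorylated CD3. For rat Cd8a they were Lat (0.94), Ctsw (0.92), Cd247 (0.92), Cd27 (0.92) and Txk (0.91), and for mouse Cd8a Gpr55 (0.72), Gzmk (0.71), Lag3 (0.69), Dapl1 (0.69) and Cxcr3 (0.65). Mouse Cd4, unlike rat Cd4, was most like lymphocyte genes: Themis (0.86), Izumo1r (0.81), Cd6 (0.78), Cd5 (0.76) and Cd28 (0.73). These are Pearson correlations of log2(CPM + 1) over groups that share libraries, given as a description.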

How the data were processed

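Droplet RNA libraries of 6 compartments of naive Lewis rats and of EAE and unimmunized mouse skull dura were analysed, 1 library per group, with groups taken from the titles. The deposited matrices hold unnormalized UMI counts for each gene in each barcode, which the authors made with Cell Ranger 3.1.0 on Rnor_6.0 and mm10, per the submitters' processing notes (3.0.2 in the rat matrix, per the file headers). The authors' deposited cluster, tissue and condition of each barcode were used, no doublet caller was run, and barcodes without a cluster, as well as the contig tables, were left out of all comparisons.

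For each cluster and tissue or condition, UMIs were added up over cells and scaled to the group's total (CPM), with exact Poisson 95% intervals. Shares carry Clopper-Pearson intervals and ratios exact conditional binomial ones. A share of 0 allows up to 3 counts of the total. Comparisons used genes with 20 or more UMIs over both sides, and 2-fold served as a description since no test was possible. For log2 ratios a side at 0 was set to 3 counts. Thinned shares are hypergeometric expectations, with shallower cells left out. Tissue comparisons needed 50 cells per side.

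The members and the 15 gene lists were chosen with earlier results of these data known. Beside the members and list counts, the 3 genes with the largest log2 ratio among those with 50 or more UMIs may be named, and for likeness the 5 genes with the highest r among those with 200 or more UMIs (1 of them is not reported here); others are said to be chosen after their values were seen. Alternatives were thinning, a minimum of 2 UMIs, TMM scaling (edgeR 4.0.16), equal weight per cell, matched depth, no filter and leaving out cells with 2 or more B cell or 10 or more myeloid UMIs. The ratio code was tested on simulated data. Python 3.11.15 with numpy 2.4.6, scipy 1.17.1, pandas 2.3.3 and matplotlib 3.10.9, and R 4.3.3, were used. Pairs of rat libraries shared 8 to 36 cell barcodes and the mouse libraries 7.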

Additional observations from a re-analysis of the deposited data

Results flagged for a closer look

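Barcodes without a deposited cluster entered no comparison, and some held CD3 transcripts. A CD3 UMI was seen in 23.7% of such barcodes in rat dura (57 of 241), 6.45% in pia (18 of 279) and 7.01% in CSF (305 of 4348). In mouse dura the shares were 30.4% in EAE (128 of 421) and 12.9% in naive mice (45 of 350). Smaller sets of such barcodes gave 43.5% in rat blood (50 of 115), 10.4% in CNS (5 of 48) and 0 of 83 in CP, which allows up to 3.61%. In annotated clusters that are not T, NK or ILC and hold 50 or more cells the same share ranged over 2.32 to 23.7% in rat dura, 1.61 to 3.86% in pia, 2.47 to 13.6% in CSF, 12.6 to 28.7% in EAE dura and 3.26 to 23.8% in naive dura, so the shares in rat dura, CSF and naive mouse dura lie within those ranges. In rat dura the upper end of the range is cluster Bc2, whose CD3 UMIs were mostly Cd3g. The unannotated barcodes had a median of 3257 UMIs in rat dura, 283 in pia, 1263 in CSF, 19148 in EAE dura and 1701 in naive dura.

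Several receptor genes were 2-fold or more higher in EAE in one mouse cluster and 2-fold or more lower in another, and the difference between clusters was not tested. The log2 EAE over naive ratio of Cd3e was 5.29 in ILC, -1.07 in gdTc and -2.55 in NK cells; over cells as deep as the lowest EAE cell it was -0.85 in gdTc, within 2-fold. That of Cd3g was 1.91 in CD4Tc, 4.31 in ILC and -1.15 in NK cells. That of Trac was 1.32 in CD4Tc, 4.28 in ILC and -1.35 in NK cells. That of Cd8b1 was 2.64 in CD4Tc and -1.63 in Treg cells. The CD4Tc value rests on 19 against 3 UMIs. A Cd8 UMI was seen in 7.24% of EAE CD4Tc cells (1.34% thinned), against 10.6% of EAE mDC1 cells (1.20% thinned). In EAE mDC2 and myeloid1 cells the share was 2.31% and 1.8%. The Treg value rests on 30 naive cells and was within 2-fold with cells weighted equally. Cd3d in NK cells was higher in EAE and within 2-fold, at 126 of 1243173 against 41 of 531774 UMIs. The NK values come from clusters whose CD3 shares, 29.2% in EAE and 24.5% in naive dura, were little above background as deposited.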

How the results depend on the processing

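No paired analysis was possible because each group has 1 sample, and for the same reason no replicate could be left out. None of the receptor gene ratios past 2-fold changed sign under any alternative run. Over all tested receptor genes the sign changed in 4 of 113 ratios under TMM scaling, 3 of 113 with cells weighted equally, 8 of 103 without cells of mixed markers, 5 of 40 over cells as deep as the lowest EAE cell, and 2 of 14 in CD3-positive cells, an alternative chosen after seeing the data.

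Thinning gave Cd8 shares of 13.2% in CSF and 14.8% in blood CD4 Tc cells, and CD3 shares of 60.9% in dura and 88.7% in blood. Requiring 2 UMIs gave 21.3%, 20.1% and, for CD3 in dura, 64.5%, and 47.6% for CD3 in pial NK cells. In mouse, thinning gave CD3 shares of 91.9% in EAE and 31.1% in naive CD4Tc cells and 3.98% in naive ILC, and Cd8 shares of 17.4% in EAE and 20.4% in naive CD8Tc cells. Requiring 2 UMIs gave CD3 shares of 33.4% in naive CD4Tc cells and 4.34% in naive ILC, and Cd8 shares of 30.1% in EAE and 27.5% in naive CD8Tc cells. Without cells of mixed markers, 100% of EAE CD4Tc cells had CD3. That setting left out 86 of 152 EAE and 7 of 353 naive CD4Tc cells. Of NK cells it left out 58 of 58 in rat CNS, 89 of 155 in rat blood and 151 of 154 in EAE dura. It is therefore no check of the NK ratios.

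With no filter on low counts the share of genes past 2-fold against blood was 55.4% in CNS and 58.9% in CP CD4 Tc cells, 42.0% in dural CD8 Tc cells, and 38.3% in CNS, 40.2% in CP, 38.4% in dura, 49.7% in pia and 36.8% in CSF NK cells. Between EAE and naive dura it was 26.8% in CD8Tc, 53.9% in Treg, 33.7% in gdTc and 33.5% in NK cells.

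The log2 ratio to blood after TMM scaling was -0.63 for Cd3e in CSF CD4 Tc cells and -1.50 for Cd8a in CSF NK cells. That of Cd3e in pial NK cells was 1.44 without cells of mixed markers. Leaving those out removed 15 of 164 pial but 89 of 155 blood NK cells, so nothing is read from that value. For EAE over naive, Cd3e in CD4Tc cells stood at 0.55 after TMM scaling, -0.040 at the lowest EAE depth and -0.47 in CD3-positive cells, and Cd4 at 1.20 and 1.55 in the last pair of settings. At the lowest EAE depth Cd3e stood at -0.85 in gdTc cells and 3.67 in ILC, and Trdc in gdTc cells at -0.067; Trdc was -0.23 without cells of mixed markers, and Cd3e in CD3-positive ILC was 2.67, a comparison that takes in naive cells with background CD3. The cause of these shifts was not tested. Depth limits that setting: 14 naive CD4Tc cells and 7 naive Treg cells reach the lowest EAE depth. Sign changes in CD4Tc cells concern Cd3e and Trbc2, whose ratios were 0.78 and 0.30 as reported.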
